A study of Homo sapiens with 6 samples.

Results

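The genes described here encode the eukaryotic translation initiation factors (eIFs), the kinases that phosphorylate eIF2, and the proteins that bind eIF4E. They were taken from the gene symbols of the deposited count tables: a symbol had to begin with EIF followed by a digit from 1 to 6, hold no hyphen, and have a mean of at least 10 counts over the libraries. Of 27754 genes listed, 56 symbols met the naming rule and 51 also met the count minimum. The 5 under the minimum were EIF4A1, EIF3C, EIF3CL, EIF1AY and EIF3IP1, and 3 antisense genes with hyphenated names were left out.

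RNA was sequenced from T47D, an established luminal-like human breast cancer cell line. Cells were kept in normoxia (20% O2) or in hypoxia (0.5% O2 for 48 h, as labelled), with 3 libraries of each condition, and the labels name no genetic change or other treatment in either. The comparison asks how low oxygen changed the transcripts of the machinery that starts protein synthesis. The labels do not say whether the 3 libraries of a condition came from separate cultures, so p-values measure only the spread between these libraries.

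Initiation begins when eIF2, carrying GTP and the initiator methionyl-tRNA, joins the small ribosomal subunit together with eIF1, eIF1A, eIF3 and eIF5. The eIF4F complex, made of the cap-binding protein eIF4E, the scaffold eIF4G and the RNA helicase eIF4A, brings the mRNA to that subunit. Both steps are regulated in stressed cells: phosphorylation of eIF2 blocks its recharging by eIF2B, and hypophosphorylated eIF4E-binding proteins keep eIF4E from eIF4G. Messenger RNA levels, the quantity measured here, report neither of these phosphorylation states.

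Library totals ran from 32989104 to 40943424 counts in normoxia and from 34640756 to 89883409 counts in hypoxia, where 3 counts equal 0.0334 to 0.0909 CPM (counts per 1e6 counted reads). The 51 genes together took 1.31 to 1.34% of the counts in normoxia and 1.32 to 1.49% in hypoxia. All 10 luminal breast markers checked were detected, with summed levels of 13863.2 to 17214.5 CPM in normoxia and 10855.3 to 13800.7 CPM in hypoxia. Of these 10, 5 were called lower in hypoxia (edgeR's quasi-likelihood test), with log2-fold changes of -2.93 for PGR, -1.86 for ESR1, -1.05 for SPDEF, -0.74 for GATA3 and -0.55 for FOXA1, and the keratins, CDH1 and EPCAM were not called. Of 10 basal or mesenchymal markers, 7 passed the filter on low counts, and their list summed to 4.54, 5.97 and 23.6 CPM in normoxia and to 46.1, 45.6 and 66.0 CPM in hypoxia. ANXA1, TGFBR2 and AXL were called higher, with log2-fold changes of 3.64, 4.16 and 1.97 and every hypoxia library above every normoxia library, and VIM, CAV1, MSN and SPARC were not called. CAV2 was at 0 counts in replicates 1 and 2 of both conditions. Both libraries numbered 3 stood apart in VIM, with 395 and 1001 counts against 7 to 35 counts in the other libraries. They also stood apart in CAV1 (39 and 198 against 0 to 15), MSN (60 and 166 against 0 to 21), SPARC (34 and 76 against 4 to 11) and CAV2 (13 and 40). Without these libraries VIM and MSN were called higher, by 1.87 and 3.66 on the log2 scale (edgeR adjusted p = 4.76e-04 and 2.15e-04). CAV1 and SPARC were not tested in that fit. Of 5 leukocyte markers, 2 passed the filter, their list summed to 1.91 to 2.45 CPM in normoxia and 8.72 to 11.3 CPM in hypoxia, and PTPRC was at 0 counts in the 3 normoxia libraries. The part of these differences in the results was not tested. With both libraries numbered 3 left out, all 36 calls described next were kept and 45 of the 51 genes were called. Calls also rose over all genes in that fit, to 5751 higher and 5506 lower from 4765 and 4551 with all libraries.

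All 51 genes passed the low-count filter, and more of them were lower in hypoxia than higher. A gene was called when edgeR's quasi-likelihood test gave it a p under 0.05 after Benjamini-Hochberg adjustment over the 15657 genes tested. Of the 51 genes, 13 were higher in hypoxia (25.5%), 23 were lower (45.1%) and 15 were not called. The number higher was 7 without hypoxia replicate 1 or 2, 8 without normoxia replicate 1 or 2, and 19 without both libraries numbered 3. Over all genes the number higher was 3910 and 3933, 3961 and 4541, and 5751 in these fits, against 4765 with all libraries. The background was high: 59.5% of all genes tested were called, 30.4% higher and 29.1% lower. The 36 called genes make 70.6% of the 51. The median log2-fold change (hypoxia over normoxia) was -0.24 over the 51 genes and 0.03 over all genes tested, and the median absolute change was 0.47 in both. In 39 genes the libraries of the conditions did not overlap, 14 being higher and 25 lower in hypoxia, and over all genes tested this held for 67.1% (34.8% higher and 32.3% lower). With the replicate number fitted as a block, 42 of the 51 genes were called, all 36 among them, beside 71.8% of all genes tested. Calls of the 51 genes that leaving out 1 library ended had adjusted p from 1.92e-05 (EIF4A2) to 0.0106 (EIF3M) with the block. Calls of at least 1 on the log2 scale numbered 4, namely EIF1 and EIF4EBP3 among those higher and EIF4E and EIF2B3 among those lower, against 20.1% of all genes tested. Scaling by the upper quartile in place of the trimmed mean of M-values raised all log2-fold changes by 0.16 at the median, and the share of the called eIF genes that were higher went from 36.1% to 50%, while over all genes it went from 51.1% to 64.5%. In bulk RNA, fewer cells of a type and less RNA per cell cannot be told apart.

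**Figure D1:**
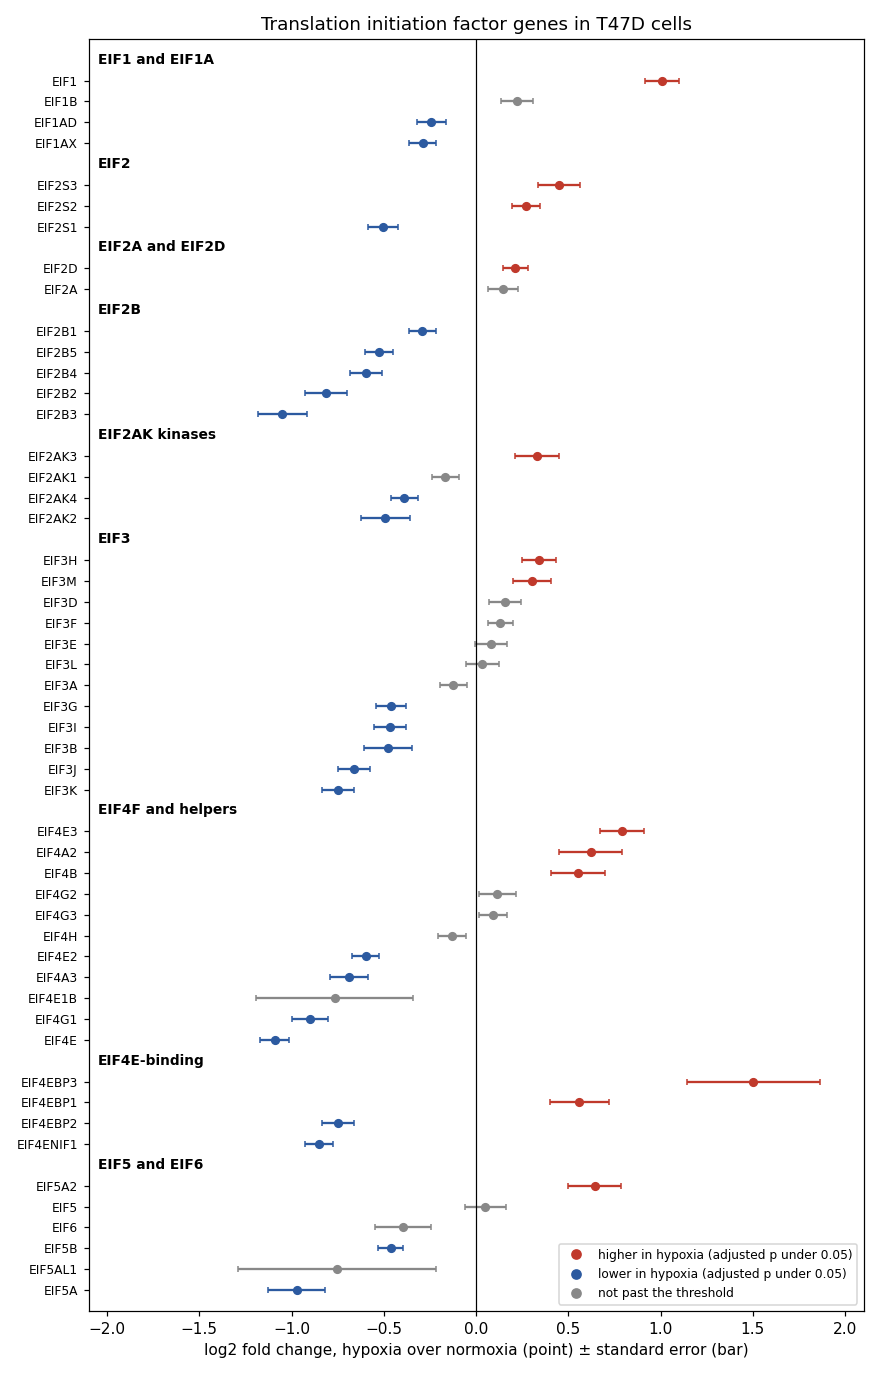
Fitted log2-fold change (hypoxia over normoxia, horizontal axis) of each of the 51 genes, grouped by complex, with bars of 1 SE. Colours mark genes called higher, called lower or not called at an adjusted p of 0.05, and all 5 EIF2B genes lie to the left of 0.

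The genes grouped as EIF1 and EIF1A did not move together. EIF1, which guards the accuracy of start codon selection, was higher in hypoxia, whereas EIF1AX and EIF1AD were lower. EIF1 (chr17:39845127-39847898, plus strand, hg19) had 527.2, 568.9 and 567.7 CPM in the normoxia libraries and 1125.1, 1210.1 and 1009.7 CPM in the hypoxia libraries. Every hypoxia library lay above every normoxia library, and the mean went from 554.6 ± 23.7 to 1114.9 ± 100.6 CPM (mean ± SD, n = 3 in each condition, as for all means given). The log2-fold change was 1.01 ± 0.09 (SE), with an edgeR adjusted p of 1.3e-04. Per kilobase of exon EIF1 was the most abundant of the 51 transcripts in both conditions, at 418.2 ± 17.9 and 840.8 ± 75.9 CPM per kb.

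EIF1B, a close paralog of EIF1, was present at far lower levels. It had 33.8, 34.6 and 36.2 CPM in normoxia and 40.3, 44.2 and 37.7 CPM in hypoxia, with a log2-fold change of 0.22 ± 0.09 and an edgeR adjusted p of 0.0573. Its libraries did not overlap between conditions, and the adjusted p was 0.0267 when the replicate number was fitted as a block. EIF1AX, which encodes eIF1A, a partner of eIF1 on the small subunit, fell by 0.29 ± 0.07 on the log2 scale, from 166.4 ± 7.81 to 136.1 ± 5.49 CPM (edgeR adjusted p = 0.0101). EIF1AD, which encodes an eIF1A domain protein, fell by 0.24 ± 0.08 (edgeR adjusted p = 0.0309). Upper-quartile scaling ended both of these calls (adjusted p = 0.138 for EIF1AX and 0.356 for EIF1AD), and leaving out normoxia replicate 1 or 3 or hypoxia replicate 1 or 2 ended that of EIF1AD (adjusted p up to 0.092). The median of these 4 genes was -0.01, and it turned positive under upper-quartile scaling (0.15) and without replicate 3 of normoxia (0.024), of hypoxia (0.011) or of both (0.059).

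The eIF2 heterotrimer, which carries the initiator tRNA, split by subunit. EIF2S1, encoding the alpha subunit that stress kinases phosphorylate, was lower in hypoxia, while EIF2S2 (beta) and EIF2S3 (gamma, the GTP-binding subunit) were higher. EIF2S1 had 265.9, 235.9 and 278.9 CPM in normoxia and 185.0, 188.2 and 177.5 CPM in hypoxia. The groups did not overlap, and the fall was 0.50 ± 0.08 on the log2 scale (edgeR adjusted p = 0.00147). EIF2S3 had 637.5, 651.7 and 552.4 CPM in normoxia and 897.0, 905.2 and 712.7 CPM in hypoxia, for a log2-fold change of 0.45 ± 0.12 (edgeR adjusted p = 0.0113). EIF2S2 rose from 344.8 ± 5.59 to 416.1 ± 28.3 CPM, with a log2-fold change of 0.27 ± 0.08 (edgeR adjusted p = 0.0164), and its call was lost when replicate 1 or 2 of either condition was left out (adjusted p up to 0.081). With the block its adjusted p was 0.00281. On the per-kilobase scale EIF2S3 was the highest and EIF2S1 the lowest of the subunits in both conditions, at 177.2 ± 15.5 and 62.5 ± 5.29 CPM per kb in normoxia and 241.9 ± 31.4 and 44.1 ± 1.32 CPM per kb in hypoxia.

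Every subunit of eIF2B, the factor that exchanges GDP for GTP on eIF2, was lower in hypoxia. All 5 genes were called and none of their libraries overlapped between conditions (over all genes tested, 29.1% were called lower and 32.3% were lower without overlap). The median log2-fold change of the 5 was -0.60, with a range from -1.05 to -0.29. Among the 9 groups into which the 51 genes were sorted, this was the only one with every gene called and in the same direction. The catalytic subunit gene EIF2B5 (chr3:183852810-183863099, plus strand) had 148.4, 143.5 and 160.6 CPM in normoxia and 109.2, 101.9 and 103.3 CPM in hypoxia, a fall of 0.53 ± 0.08 (edgeR adjusted p = 7.98e-04). EIF2B3 (chr1:45316194-45452394, minus strand), whose product pairs with that of EIF2B5 in the catalytic part of the complex, fell most. It had 29.8, 26.6 and 35.8 CPM in normoxia and 14.6, 13.6 and 16.2 CPM in hypoxia, so that its level in hypoxia was 0.483 of that in normoxia (log2-fold change -1.05 ± 0.13, edgeR adjusted p = 4.46e-04). It was the least abundant subunit per kilobase in both conditions, at 14.1 ± 2.14 and 6.81 ± 0.616 CPM per kb.

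The regulatory subunits of eIF2B, which sense the phosphorylated alpha subunit of eIF2, were also all lower. EIF2B2 fell by 0.81 ± 0.11, from 72.7 ± 8.7 to 41.4 ± 4.1 CPM (edgeR adjusted p = 7.43e-04). EIF2B4 fell by 0.60 ± 0.09, from 43.5 ± 3.43 to 28.7 ± 0.996 CPM (edgeR adjusted p = 8.53e-04). EIF2B1, the most abundant of the 5 per kilobase, fell least, by 0.29 ± 0.07, from 135.5 ± 5.39 to 110.7 ± 4.52 CPM (edgeR adjusted p = 0.00925). The call of EIF2B1 was the only one of the 5 lost under upper-quartile scaling (adjusted p = 0.158), and none of the 5 was lost when a library was left out.

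The kinases that phosphorylate eIF2 did not go in 1 direction: 1 of the 4 genes was higher, 2 were lower and 1 was not called, with log2-fold changes from -0.49 to 0.33. The share called was 75%, beside 59.5% of all genes tested. EIF2AK4, encoding GCN2, which responds to uncharged tRNA, had 111.5, 112.2 and 109.8 CPM in normoxia and 86.4, 88.6 and 79.7 CPM in hypoxia. The groups were well separated, with a fall of 0.39 ± 0.07 on the log2 scale (edgeR adjusted p = 0.00261). EIF2AK2, encoding PKR, which responds to double-stranded RNA, fell by 0.49 ± 0.13, from 29.2 ± 3.93 to 20.8 ± 2.42 CPM (edgeR adjusted p = 0.013), and was no longer called without normoxia replicate 1 (adjusted p = 0.0535) or with upper-quartile scaling (adjusted p = 0.0784). EIF2AK1, encoding the heme-regulated kinase HRI, had 452.1, 497.0 and 442.5 CPM in normoxia and 412.2, 408.8 and 419.3 CPM in hypoxia. Its log2-fold change of -0.17 ± 0.07 did not pass the test (edgeR adjusted p = 0.087), and passed with the replicate number as a block (adjusted p = 0.0326). Of the exon bases of EIF2AK1, 11.9% overlap AIMP2 on the other strand.

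EIF2AK3, encoding PERK, the kinase of the endoplasmic reticulum that responds to unfolded proteins, was the only kinase gene called higher. It had 23.9, 26.2 and 22.8 CPM in normoxia and 32.9, 32.9 and 26.0 CPM in hypoxia. Hypoxia replicate 3 lay just under the highest normoxia library, so the groups overlapped. The log2-fold change was 0.33 ± 0.12 (edgeR adjusted p = 0.0401), and the call was lost in 5 of the 6 fits that left out a library, all but that without hypoxia replicate 3 (adjusted p from 0.0538 to 0.141 in those 5), and when all libraries were thinned to the smallest total (adjusted p = 0.0505). With the block the adjusted p of EIF2AK3 was 0.00499. LOC101928371 on the other strand overlaps 16.2% of its exon bases. Per kilobase the order of the kinase genes was EIF2AK1, EIF2AK4, EIF2AK2, EIF2AK3 in normoxia, and the last 2 changed places in hypoxia (6.33 ± 0.823 CPM per kb for EIF2AK3 and 4.78 ± 0.556 CPM per kb for EIF2AK2).

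**Figure D2:**
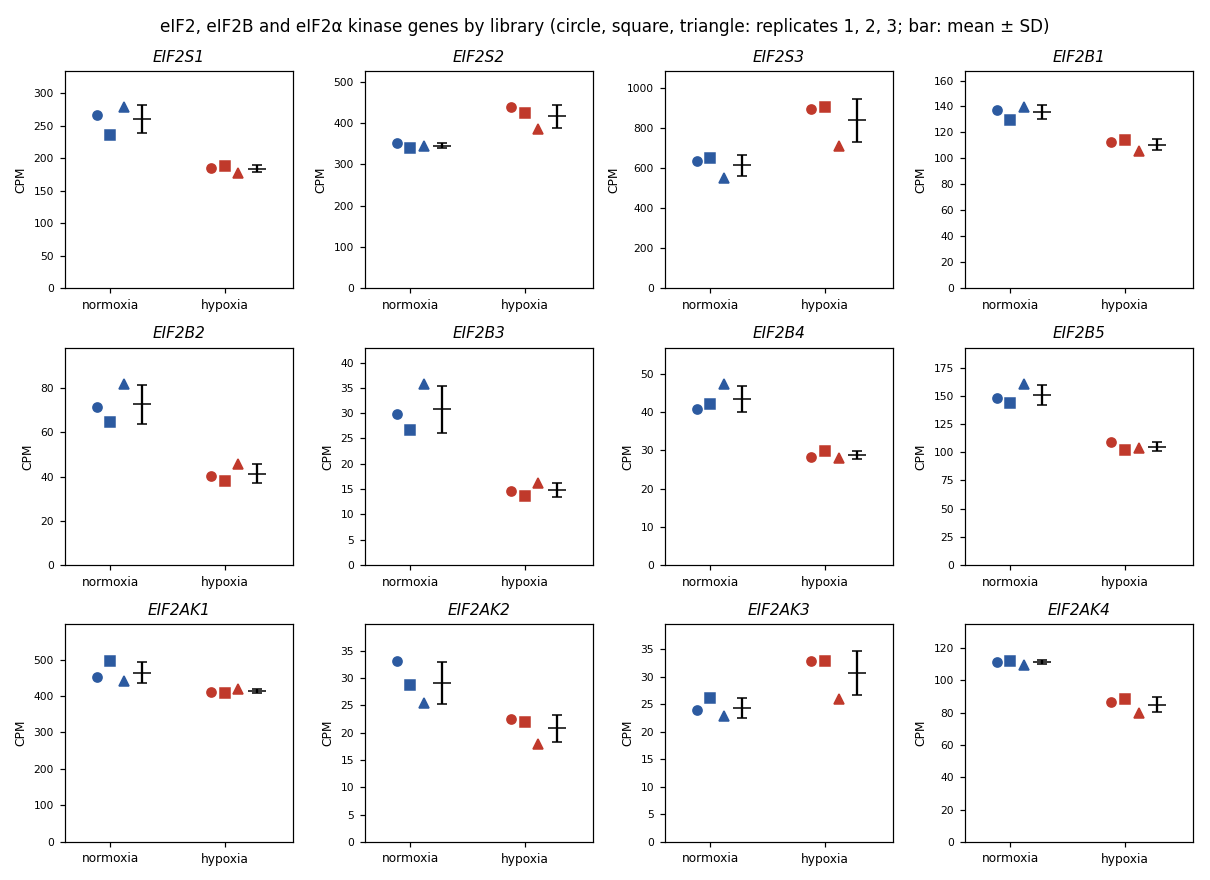
Level in CPM (vertical axes from 0) of genes of eIF2, eIF2B and the eIF2 kinases in each library, with replicates 1, 2 and 3 as circle, square and triangle and the bar as mean ± SD. In EIF2B3 the normoxia libraries sit between 26.6 and 35.8 CPM and the hypoxia libraries between 13.6 and 16.2 CPM, and in EIF2AK3 the groups overlap.

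The genes that reverse or modulate eIF2 phosphorylation were examined beside these kinases. Of 9 genes tested, 2 were higher, 3 were lower and 4 were not called (55.6% called, beside 59.5% of all genes tested), with a median log2-fold change of -0.07. With the block, PPP1R15B (adjusted p = 0.00645) was called higher and DNAJC3 (adjusted p = 0.0406) lower as well. PPP1R15A, the inducible subunit (GADD34) that directs protein phosphatase 1 to eIF2, had 15.5, 17.9 and 17.8 CPM in normoxia and 42.3, 52.8 and 41.3 CPM in hypoxia, for a log2-fold change of 1.41 ± 0.12 (edgeR adjusted p = 1.11e-04). NCK1, an adaptor protein, was higher by 0.43 ± 0.09 (edgeR adjusted p = 0.00452). GCN1, needed for activation of GCN2, fell by 0.66 ± 0.12, from 373.1 ± 50.2 to 236.2 ± 27.8 CPM (edgeR adjusted p = 0.00261). PPP1CA, a catalytic subunit of protein phosphatase 1, fell by 0.59 ± 0.18 (edgeR adjusted p = 0.0213) and was not called without hypoxia replicate 1 or 2 (adjusted p = 0.0765 and 0.067). With the block its adjusted p was 9.85e-05.

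EIF2A and EIF2D encode proteins that can deliver initiator tRNA or recycle ribosomes without eIF2, and EIF2A is not a subunit of eIF2. EIF2D rose from 83.0 ± 1.7 to 96.2 ± 2.38 CPM, with a log2-fold change of 0.21 ± 0.07 (edgeR adjusted p = 0.027). Its call was lost without any 1 of the normoxia libraries or hypoxia replicate 1 or 2 (adjusted p up to 0.112). EIF2A overlapped between conditions and was not called (0.15 ± 0.08, edgeR adjusted p = 0.159). DENR and MCTS1, whose products act together in reinitiation and ribosome recycling, fell by 0.36 ± 0.08 and 0.56 ± 0.08 (edgeR adjusted p = 0.00556 and 8.03e-04), and the call of DENR was lost under upper-quartile scaling (adjusted p = 0.0774).

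The scaffold eIF3, the largest initiation complex, showed subunits moving each way. Of its 12 genes measured, 2 were higher (EIF3H and EIF3M), 5 were lower (EIF3K, EIF3J, EIF3B, EIF3I and EIF3G) and 5 were not called. The share called, 58.3% (16.7% higher and 41.7% lower), was near that of all genes tested, 59.5% (30.4% higher and 29.1% lower). The median log2-fold change was -0.05 and the range ran from -0.75 to 0.34, and the median became positive with upper-quartile scaling (0.11) and without hypoxia replicate 3 (0.003). With the replicate number as a block, EIF3D (0.16, adjusted p = 0.0247) and EIF3F (0.13, adjusted p = 0.045) were called as well, so that 4 were higher. Over all 15657 genes tested, 5733 were higher with the block and 4765 without it. EIF3K (chr19:39109712-39127599, plus strand), a peripheral subunit, fell most: it had 164.0, 157.9 and 183.8 CPM in normoxia and 94.6, 101.2 and 104.9 CPM in hypoxia (log2-fold change -0.75 ± 0.09, edgeR adjusted p = 2.94e-04). EIF3J, encoding the loosely attached subunit near the decoding site, fell by 0.66 ± 0.09, from 151.2 ± 14.5 to 95.7 ± 2.78 CPM (edgeR adjusted p = 5.44e-04). Both genes kept every hypoxia library below every normoxia library.

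The subunits EIF3B, EIF3G and EIF3I, which with EIF3A form a module of the complex near the mRNA entry channel, had falls of similar size. EIF3B fell by 0.48 ± 0.13 (edgeR adjusted p = 0.0152), EIF3G by 0.46 ± 0.08 (edgeR adjusted p = 0.0018) and EIF3I by 0.47 ± 0.09 (edgeR adjusted p = 0.00279). EIF3A, the largest subunit, had a log2-fold change of -0.12 ± 0.07 that did not pass the test (edgeR adjusted p = 0.174) and turned positive with upper-quartile scaling. The call of EIF3B was lost without hypoxia replicate 2 (adjusted p = 0.0539), and genes on the other strand overlap 10.3% of the exon bases of EIF3G and 8.7% of those of EIF3I. This grouping by module was made after the values were seen.

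The genes of the module formed by EIF3F, EIF3H and EIF3M went the other way or did not pass. EIF3H had 427.5, 440.4 and 389.9 CPM in normoxia and 547.3, 567.5 and 476.4 CPM in hypoxia (log2-fold change 0.34 ± 0.09, edgeR adjusted p = 0.0142). EIF3M had 351.2, 339.3 and 352.8 CPM in normoxia and 459.4, 462.8 and 364.7 CPM in hypoxia (0.30 ± 0.10, edgeR adjusted p = 0.0341). Leaving out hypoxia replicate 1 or 2 ended the call of EIF3H (adjusted p up to 0.0591), and leaving out any library but hypoxia replicate 3 ended that of EIF3M (adjusted p up to 0.129). CCDC73 on the other strand overlaps 34.6% of the exon bases of EIF3M. EIF3E, EIF3D and EIF3L had log2-fold changes of 0.08 ± 0.09, 0.16 ± 0.09 and 0.03 ± 0.09, with edgeR adjusted p-values of 0.438, 0.156 and 0.758.

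The levels of the eIF3 transcripts per kilobase were not even across the complex. EIF3E was highest in normoxia at 377.8 ± 1.75 CPM per kb and EIF3J was lowest at 59.1 ± 5.65 CPM per kb. EIF3M, EIF3B, EIF3K and EIF3L followed EIF3E and EIF3H, between 202.2 ± 4.3 and 181.9 ± 13.4 CPM per kb, and each overlapped its neighbour in that order. In hypoxia EIF3H (416.0 ± 37.5 CPM per kb) and EIF3E (399.8 ± 37.1 CPM per kb) overlapped at the top, EIF3K moved from the fifth place to the eighth (112.3 ± 5.83 CPM per kb), and EIF3J stayed last (37.4 ± 1.09 CPM per kb). EIF3C could not be described: it had 1 to 10 counts a library and EIF3CL had 0, and the exons of these near-identical genes share 89.6% of the bases of EIF3C and 100% of those of EIF3CL.

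**Figure D3:**
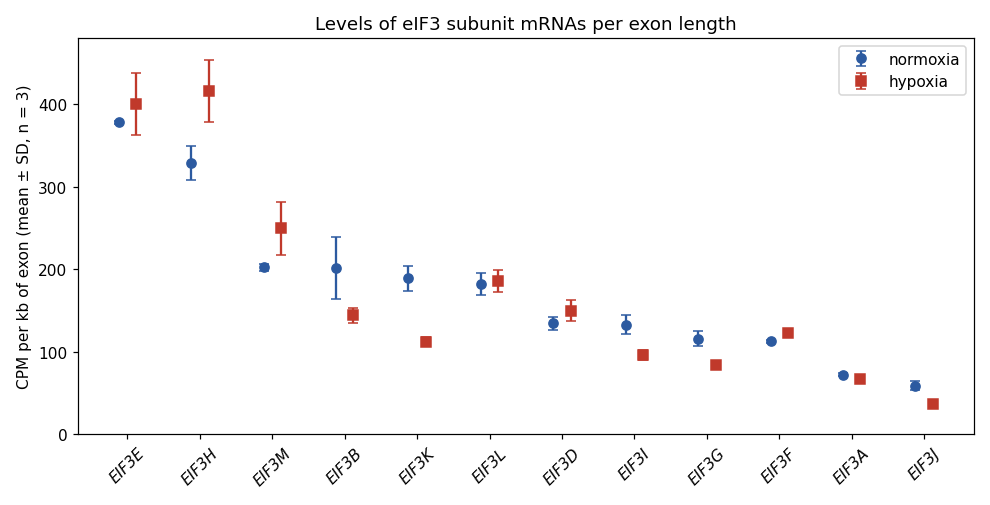
Levels of the 12 measured eIF3 genes in CPM per kb of exon (vertical axis from 0), as mean ± SD of 3 libraries, with circles for normoxia and squares for hypoxia. EIF3K falls from 188.8 to 112.3 CPM per kb, while EIF3H goes from 328.8 to 416.0 CPM per kb.

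Within the cap-binding complex, EIF4E and the main scaffold gene EIF4G1 were both lower in hypoxia. EIF4E (chr4:99792835-99851788, minus strand), encoding the protein that grips the cap, had 65.9, 63.4 and 63.1 CPM in normoxia and 31.0, 28 and 31.2 CPM in hypoxia. The libraries of a condition lay close together and far from those of the other, with means of 64.1 ± 1.55 and 30.1 ± 1.76 CPM. The log2-fold change of -1.09 ± 0.08 was the lowest of the 51 genes (edgeR adjusted p = 6.16e-05). EIF4G1 (chr3:184032283-184053146, plus strand) had 1465.8, 1245.2 and 1493.9 CPM in normoxia and 798.7, 704.8 and 748.4 CPM in hypoxia, a fall of 0.90 ± 0.10 to 0.536 of the normoxia level (edgeR adjusted p = 2.52e-04). Both calls held in every alternative run.

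The related scaffolds did not follow EIF4G1. EIF4G2 (DAP5), which lacks the part that binds eIF4E, had 1055.2, 977.0 and 1103.6 CPM in normoxia and 1186.5, 997.6 and 1211.6 CPM in hypoxia, and the groups overlapped (0.11 ± 0.10, edgeR adjusted p = 0.346). EIF4G3, a scaffold that does bind eIF4E, had 88.9 ± 4.43 and 94.8 ± 4.02 CPM (0.09 ± 0.08, edgeR adjusted p = 0.316). Upper-quartile scaling brought both past the threshold, as higher in hypoxia (adjusted p = 0.0315 and 0.0202). Counts of EIF4G2 were 0.72 to 0.785 of those of EIF4G1 within the normoxia libraries and 1.42 to 1.62 of them within the hypoxia libraries. The exons of EIF4G2 and EIF4G1 differ in length (4359 and 6247 bases). Per kilobase the genes overlapped in normoxia, at 239.8 ± 14.7 CPM per kb for EIF4G2 and 224.4 ± 21.8 CPM per kb for EIF4G1. In hypoxia they had 259.7 ± 26.8 and 120.2 ± 7.52 CPM per kb.

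Of the other cap-binding genes, EIF4E2 was lower, EIF4E3 was higher and EIF4E1B was not called. EIF4E2 (4EHP), which binds the cap without binding eIF4G1, had 70.3, 70.1 and 68.8 CPM in normoxia and 47, 44 and 47.1 CPM in hypoxia, a fall of 0.60 ± 0.07 (edgeR adjusted p = 3.82e-04). EIF4E3 had 20.6, 20.2 and 16.2 CPM in normoxia and 33.5, 35.2 and 30.3 CPM in hypoxia, for a log2-fold change of 0.79 ± 0.12 (edgeR adjusted p = 9.18e-04). EIF4E1B, with 19 to 87 counts a library in normoxia and 37 to 76 in hypoxia, was not called (-0.77 ± 0.43, edgeR adjusted p = 0.154) but was called lower without normoxia replicate 3 (adjusted p = 0.00591).

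The helicase subunit and its helpers went up or did not pass, except for EIF4A3. EIF4A2 had 637.1, 712.7 and 490.3 CPM in normoxia and 994.7, 1079.4 and 754.9 CPM in hypoxia (0.62 ± 0.17, edgeR adjusted p = 0.0147), and was not called without hypoxia replicate 1 or 2 (adjusted p up to 0.0542). With the block its adjusted p was 1.92e-05. EIF4B, encoding an activator of the helicase, had 910.7, 999.9 and 743.8 CPM in normoxia and 1363.2, 1451.1 and 1079.1 CPM in hypoxia (0.55 ± 0.15, edgeR adjusted p = 0.012). In both genes the library numbered 3 was the lowest of its condition, and the groups still did not overlap. EIF4A3, encoding a related helicase that works in the exon junction complex and not in eIF4F, fell by 0.69 ± 0.10, from 232.1 ± 21.0 to 143.9 ± 15.4 CPM (edgeR adjusted p = 9.95e-04). EIF4H, another helicase cofactor, was not called (-0.13 ± 0.08, edgeR adjusted p = 0.178) and its sign turned with upper-quartile scaling. EIF4A1, which encodes the main helicase of eIF4F, was listed at 0 counts in all 6 libraries, and 100% of its exon bases in the tables also belong to the readthrough gene SENP3-EIF4A1, itself at 5 to 24 counts, so that its level was not measured. In all, 3 of these 11 genes were higher, 4 lower and 4 not called (63.6% called, beside 59.5% of all genes tested). Their median log2-fold change of -0.13 became positive with upper-quartile scaling.

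The genes that restrain eIF4E moved in opposite directions. EIF4EBP1, encoding 4E-BP1, a target of mTORC1 that sequesters eIF4E, had 90.0, 78.7 and 116.0 CPM in normoxia and 135.0, 120.9 and 163.5 CPM in hypoxia. The lowest hypoxia library lay just above the highest normoxia library, and within each replicate number the hypoxia library was the higher. The log2-fold change was 0.56 ± 0.16 (edgeR adjusted p = 0.0181), and without normoxia replicate 1 or 2 the call was lost (adjusted p up to 0.0669). With the replicate number as a block its adjusted p was 4.16e-05. EIF4EBP2 (chr10:72163861-72188374, plus strand), its paralog, had 224.5, 205.2 and 228.9 CPM in normoxia and 130.8, 120.1 and 141.5 CPM in hypoxia, a fall of 0.75 ± 0.09 (edgeR adjusted p = 3.3e-04). On the per-kilobase scale EIF4EBP1 was above EIF4EBP2 in both conditions, at 110.5 ± 22.2 against 29.1 ± 1.67 CPM per kb in normoxia and 162.7 ± 25.3 against 17.4 ± 1.42 CPM per kb in hypoxia.

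EIF4ENIF1, encoding the transporter 4E-T that carries eIF4E into the nucleus and to processing bodies, had 49.1, 48.4 and 46.7 CPM in normoxia and 26.8, 27.4 and 25.8 CPM in hypoxia. The libraries of each condition were nearly level, and the fall was 0.85 ± 0.07 (edgeR adjusted p = 1.19e-04). EIF4EBP3 was scarce, with 8, 13 and 12 counts in normoxia and 30, 25 and 106 counts in hypoxia, the last of these in the deepest library (0.203 to 0.388 CPM and 0.683 to 1.16 CPM). Its log2-fold change of 1.5 ± 0.36 was the highest of the 51 genes (edgeR adjusted p = 0.00809), but 74.7% of its exon bases are shared with the readthrough gene ANKHD1-EIF4EBP3, so its counts are uncertain. The median of these 4 genes was -0.09, with 0.065 under upper-quartile scaling and values from -0.19 to 0.00 when a library was left out (-0.12 and -0.19 without normoxia replicate 1 and 2, 0.00 without normoxia replicate 3, -0.02 and -0.19 without hypoxia replicate 2 and 3).

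**Figure D4:**
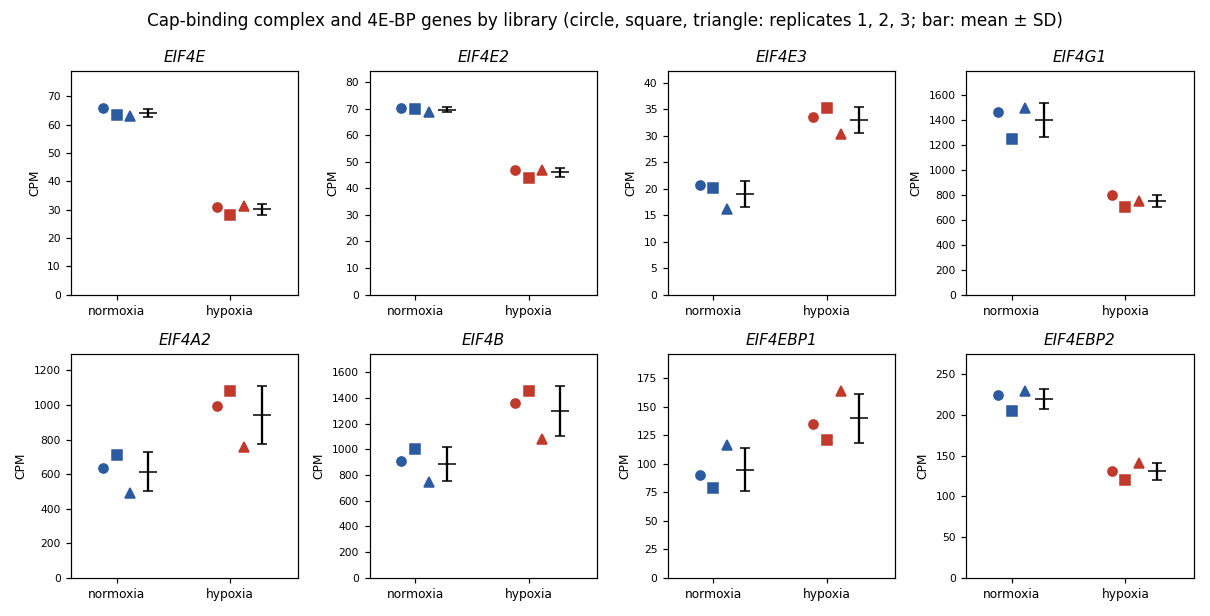
Levels in CPM (vertical axes from 0) of 8 genes of the cap-binding complex and its inhibitors in each library, with replicates 1, 2 and 3 as circle, square and triangle and the bar as mean ± SD. EIF4E, EIF4E2, EIF4G1 and EIF4EBP2 are lower in every hypoxia library, and EIF4E3, EIF4A2, EIF4B and EIF4EBP1 higher.

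Promoter sequence was read for the genes of the 51 with a matched promoter, whether called or not. RefSeq promoters (GRCh38.p14, 250 bases before the start site) were matched for 43 of the 51 genes and searched for CACGTG, the palindromic E-box bound by MYC-MAX dimers and related factors. It was present in 12 of the 43 (27.9%), in 8.69% of the promoters of genes tested here and in 6.34% of all 35116 promoters in the table. Among the genes shown, EIF4E and EIF4G1 (lower in hypoxia) and EIF5A2 (higher in hypoxia) each hold 2 copies, while EIF2B3 (lower) and EIF4B (higher) hold 1. The windows of 30 bases are given with the motif in capitals, on the strand of the gene.
EIF4E, chr4:98929341-98929370, minus strand: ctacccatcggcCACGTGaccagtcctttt
EIF4E, chr4:98929188-98929217, minus strand: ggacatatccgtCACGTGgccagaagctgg
EIF4G1, chr3:184314450-184314479, plus strand: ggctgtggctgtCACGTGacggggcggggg
EIF4G1, chr3:184314527-184314556, plus strand: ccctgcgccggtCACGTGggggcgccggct
EIF5A2, chr3:170908807-170908836, minus strand: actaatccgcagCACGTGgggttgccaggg
EIF5A2, chr3:170908782-170908811, minus strand: cagggcgctcttCACGTGactgggcggagc
EIF2B3, chr1:44986757-44986786, minus strand: gacagagggacaCACGTGtcgaatgctcct
EIF4B, chr12:53006422-53006451, plus strand: gcccgctataatCACGTGattgcctcatcc

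The motif did not separate the genes by direction, since it was in 3 of 10 promoters of genes called higher, 6 of 22 called lower and 3 of 11 not called. The shorter motif ACGTG, searched on both strands and contained in every CACGTG, was in 39.5% of the 43 promoters and 23.0% of those of genes tested. GCGTG, also searched on both strands, was in 51.2% and 44.6%. ACGTG and GCGTG are the core of the element that hypoxia-inducible factors bind, and a match describes letters in a window and not binding.

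Ratios of related genes were also taken within each library, where the scaling between libraries has no part. Of 10 ratios planned, that of EIF4A2 to EIF4A1 could not be computed, and in all the other 9 the hypoxia libraries did not overlap the normoxia libraries. The genes in these ratios were chosen with earlier results of these data known. No share over other gene pairs was computed, and of single genes tested 67.1% did not overlap. The exact two-sided permutation test of 3 against 3 libraries, which took no account of replicate numbers, gave p = 0.1 for each of the 9 (Benjamini-Hochberg adjusted p = 0.1). That is the smallest p this unpaired test allows, so no ratio could pass 0.05. The log2 ratio of EIF4E3 to EIF4E changed most, from -1.76 ± 0.17 to 0.13 ± 0.18, which is a count ratio of 0.258 to 0.319 in normoxia and 0.973 to 1.25 in hypoxia. That of EIF4EBP1 to EIF4E went from 0.55 ± 0.30 to 2.21 ± 0.16, and that of EIF4EBP2 to EIF4E from 1.77 ± 0.08 to 2.12 ± 0.06. EIF4EBP2, although lower in hypoxia, thus fell less than EIF4E. EIF4EBP1 reached the count of EIF4EBP2 in hypoxia, with count ratios of 1.01 to 1.16 against 0.384 to 0.507 in normoxia. Count ratios do not allow for exon length, and per kilobase EIF4EBP1 was above EIF4EBP2 in both conditions. The ratio of EIF1B to EIF1 was the only one that decreased, by 0.78 on the log2 scale.

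**Figure D5:**
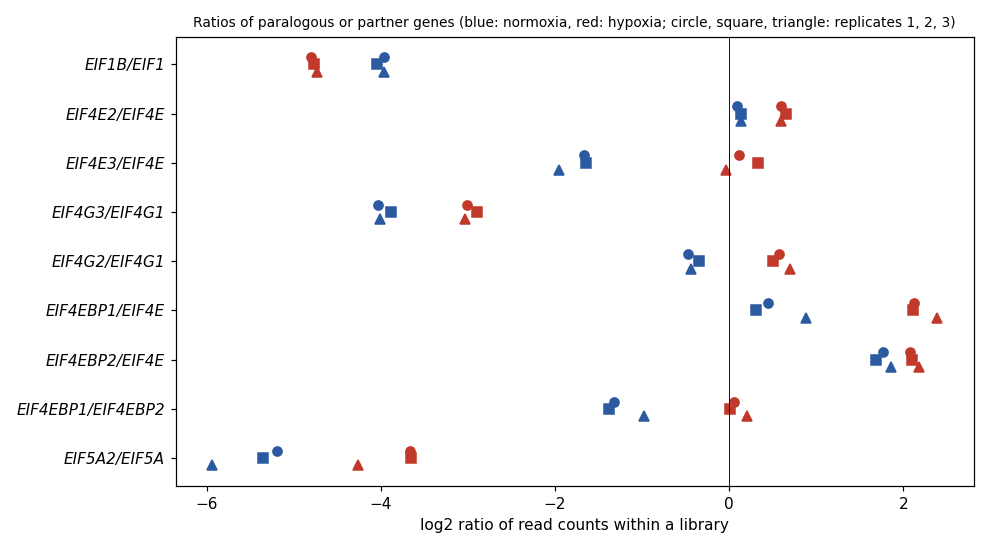
Log2 ratio of counts of related genes within each library (horizontal axis), for the 9 ratios computed, in normoxia and hypoxia. The conditions do not overlap in any of the 9, whose genes were chosen with earlier results known, and EIF1B/EIF1 is the only ratio that is lower in hypoxia.

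Partners of the cap complex included larger changes than its own subunits. Of 12 genes tested, 3 were higher, 5 were lower and 4 were not called (66.7% called, beside 59.5% of all genes tested), with a median of -0.15. With the block, PABPC4 (adjusted p = 0.0202) was called higher and CYFIP1 (adjusted p = 0.0165) lower as well. MKNK2, encoding a kinase that phosphorylates eIF4E on the eIF4G scaffold, had 117.7, 128.3 and 123.5 CPM in normoxia and 389.5, 371.7 and 515.2 CPM in hypoxia (1.79 ± 0.13, edgeR adjusted p = 6.16e-05). PDCD4, encoding an inhibitor of the eIF4A helicase, had 646.5, 645.0 and 609.9 CPM in normoxia and 234.8, 219.3 and 195.0 CPM in hypoxia (-1.55 ± 0.09, edgeR adjusted p = 3.82e-05). The related kinase MKNK1 was not called (0.08 ± 0.08, edgeR adjusted p = 0.381). PABPC1, the poly(A)-binding protein that contacts eIF4G, was higher by 0.55 ± 0.12 (edgeR adjusted p = 0.00453), and the helicase genes DHX29 and DDX3X each fell by 0.83 ± 0.09 (edgeR adjusted p = 2.35e-04 and 2.19e-04).

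The factors of subunit joining and of the last steps of initiation were lower or not called, with EIF5A2 as the exception. EIF5B, encoding the GTPase that joins the ribosomal subunits, had 203.8, 199.6 and 213.1 CPM in normoxia and 154.4, 149.9 and 142.7 CPM in hypoxia (-0.46 ± 0.07, edgeR adjusted p = 0.00101). EIF5, encoding the protein that stimulates GTP hydrolysis by eIF2, overlapped between conditions and was not called (0.05 ± 0.11, edgeR adjusted p = 0.718). EIF6, which keeps the large subunit from joining too early, had 209.4, 186.4 and 251.5 CPM in normoxia and 147.7, 145.4 and 197.9 CPM in hypoxia. Hypoxia replicate 3 lay above normoxia replicate 2, so the groups overlapped, and its log2-fold change of -0.40 ± 0.15 had an edgeR adjusted p of 0.0516. In the fit with the block the adjusted p of EIF6 was 3.15e-04, and it was also called without normoxia replicate 2 or hypoxia replicate 3 (adjusted p down to 0.00654).

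EIF5A and EIF5A2, paralogs that carry the amino acid hypusine and help ribosomes through difficult peptide bonds, went in opposite directions. EIF5A (chr17:7210318-7215782, plus strand) had 510.6, 456.8 and 610.0 CPM in normoxia and 250.5, 229.2 and 323.6 CPM in hypoxia (-0.97 ± 0.15, edgeR adjusted p = 0.00121). EIF5A2 had 13.9, 11.1 and 9.95 CPM in normoxia and 19.6, 18.3 and 16.8 CPM in hypoxia (0.64 ± 0.14, edgeR adjusted p = 0.00571). EIF5A remained the more abundant by far, since counts of EIF5A2 were 0.0163 to 0.0273 of those of EIF5A in normoxia and 0.0521 to 0.0797 of them in hypoxia. EIF5AL1, an intronless copy close in sequence to EIF5A whose reads may come from either, was not called (-0.75 ± 0.54, edgeR adjusted p = 0.255) and was called lower with the block (adjusted p = 0.0265). With the block, 4 of these 6 genes were lower, against 2 without it. Over all 15657 genes tested, 5511 were lower with the block and 4551 without it. DOHH, the enzyme that completes hypusine, fell by 0.76 ± 0.26 (edgeR adjusted p = 0.0355), with overlapping libraries. That call was lost with upper-quartile scaling (adjusted p = 0.0597), without normoxia replicate 3 (adjusted p = 0.0795) and without hypoxia replicate 1 or 2 (adjusted p = 0.107 and 0.106). With the block the adjusted p of DOHH was 9.43e-05. DHPS, the enzyme that starts hypusine synthesis, was not called (-0.19 ± 0.09, edgeR adjusted p = 0.0875) and was called lower with the block (adjusted p = 0.0138).

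Beyond initiation, 11 of 12 elongation and termination genes were tested, and 2 were higher, 4 lower and 5 not called, with a median log2-fold change of 0.04. The share called was 54.5%, beside 59.5% of all genes tested. The elongation factor genes EEF2 and EEF1A1 were higher by 0.46 ± 0.09 and 0.29 ± 0.09 (edgeR adjusted p = 0.00348 and 0.022), and the call of EEF1A1 was lost without normoxia replicate 1 or hypoxia replicate 1 or 2 (adjusted p up to 0.0955). With the block the adjusted p of EEF1A1 was 0.00183. EEF1E1, encoding an accessory protein of the aminoacyl-tRNA synthetase complex, fell by 0.77 ± 0.16, the largest fall of the list, from 20.1 ± 3.96 to 11.8 ± 1.15 CPM (edgeR adjusted p = 0.00365). The other lower calls were falls of 0.69 ± 0.07 in ETF1, the release factor that reads stop codons, 0.59 ± 0.08 in its GTPase partner GSPT1 and 0.60 ± 0.09 in ABCE1, which splits ribosomes after release (edgeR adjusted p = 2.1e-04, 6.65e-04 and 7.79e-04). With the block, EEF1D (adjusted p = 0.00201) was called lower and EEF1G (adjusted p = 0.0319) higher as well, so that 3 genes were higher and 5 lower. Over all 15657 genes tested, the block gave 5733 higher and 5511 lower, against 4765 and 4551 without it. GSPT2 had 1 to 10 counts a library and was not tested.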

How the data were processed

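RNA sequencing libraries of T47D cells, 3 in normoxia and 3 in hypoxia, were grouped and numbered by their labels. The labels give 0.5% O2 for hypoxia, while the study's text gives 1% O2. Per the labels, stranded mRNA libraries were prepared. The authors removed adapters with Skewer, aligned reads with STAR to GRCh37 (hg19) and used featureCounts to count reads for each RefSeq gene, and the submitters' processing notes name FastQC 0.11.5, STAR 2.5.2a and featureCounts 1.5.1. The deposited values are raw counts per gene, 1 file per library, without normalization, beside the length of each gene's exons. How strand was set, and what was done with reads matching several places or genes, is not given in the sources used here, so genes that overlap another gene or nearly match it have uncertain counts.

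Genes were kept by edgeR's filterByExpr (minimum count 10, minimum total count 15), which left 15657, and were tested with edgeR 4.0.16 (R 4.3.3, limma 3.58.1): quasi-likelihood test, TMM factors, condition as the only term, Benjamini-Hochberg adjustment at 0.05. The study's exact test, DESeq2 1.42.0 and other alternatives were run beside it. CPM are TMM-scaled, and marker sums use plain totals. CPM per kb divides by exon length. Counting error, for which 3 counts served as the floor, and the spread of 3 libraries limit the precision. Ratios used log2 counts with a pseudocount of 0.5 and an exact permutation test. The fits were tested on simulated data.

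Same-numbered libraries of the conditions shared their deviations from the condition means. The correlations over 15657 genes were 0.338, 0.422 and 0.575 for replicates 1, 2 and 3. Replicates 1 and 2 were less distinct as pairs, since the crossed correlations were 0.243 (normoxia 1, hypoxia 2) and 0.277 (normoxia 2, hypoxia 1). Those between a replicate 3 and the others ran from -0.466 to -0.376. The main fit and the permutation test ignored the replicate number. A fit with the number as a block was run beside them. Its values are given where it changed a call of an initiation factor or partner gene. By gene or as a range, they are also given for calls lost when a library was left out. None are given for markers. The common biological coefficient of variation was 0.141 without the block and 0.0751 with it.

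The genes and lists were chosen with earlier results of these data known. Named genes were those of stated roles (EIF2S1, the EIF2AK kinases, EIF2B5, EIF4E, EIF4G1, EIF4A1, the EIF4EBP genes, EIF6), those of the ratios, and in each list the 2 largest and 2 smallest log2-fold changes among genes past 0.05 with a mean of at least 10 counts. Other members and partners were described after their values were seen. GCN1 was matched through a RefSeq synonym. EIF1AY was at 0 counts. Python 3.11.15 with matplotlib 3.10.9 made the plots.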

Additional observations from a re-analysis of the deposited data

How the results depend on the processing

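Counts and directions were recomputed with DESeq2's size factors and test, edgeR's exact test, upper-quartile factors, no filter on low counts, the replicate number as a block, each library left out in turn, both libraries numbered 3 left out, and all libraries thinned to the smallest total. Over these fits and the gene ratios (also with a pseudocount of 5 counts), 653 values of single genes and ratios kept their direction and, for single genes, their side of the threshold. Ratios were judged by direction alone, since their p could not pass 0.05. Of single genes, 46 values of called genes lost the threshold and 19 of genes not called gained it. Upper-quartile factors moved the median log2-fold change to -0.083 over the 51 genes, 0.15 over EIF1 and EIF1A, 0.43 over EIF2, 0.34 over EIF2A and EIF2D, -0.12 over the EIF2AK kinases, -0.44 over EIF2B, 0.11 over EIF3, 0.065 over the EIF4E-binding genes, 0.03 over EIF4F and its helpers and -0.27 over EIF5 and EIF6, a shift that all genes shared. DESeq2's size factors and its test gave -0.11 for the EIF4E-binding genes. Without both libraries numbered 3 the medians were -0.20 over the 51 genes and 0.059 over EIF1 and EIF1A. With each library left out in turn, 7 to 15 of the 51 genes were higher and 21 to 24 lower, and the medians ran from -0.31 to -0.20 over the 51 genes, -0.055 to 0.024 over EIF1 and EIF1A, -0.075 to 0.003 over EIF3, -0.19 to 0.00 over the EIF4E-binding genes and -0.51 to -0.16 over EIF5 and EIF6. In the same fits 3910 to 4991 of all genes were higher and 3561 to 4924 lower. These fits have fewer libraries and leave a same-numbered library without its counterpart, and the cause of the other moves was not tested. The replicate block gave 16 higher and 26 lower of the 51 genes, and beyond the calls named with it above it changed no other call of the 51. Over all genes tested it gave 5733 higher and 5511 lower, against 4765 and 4551 without it. The exact test and DESeq2 called 37 and 38 of the 51, among them all 36. No fitted call of the 51 genes reversed. Depth limits EIF4EBP3, EIF4E1B and EIF5AL1, which have under 110 counts in every library.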

Other observations

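The hyphenated antisense genes left out by the naming rule were counted in the same tables. EIF1B-AS1, which overlaps EIF1B on the other strand, had 7, 4 and 1 counts in the normoxia libraries and 38, 27 and 55 counts in the hypoxia libraries. EIF1B itself had 1333, 1288 and 1121 counts in normoxia and 1630, 1617 and 3444 counts in hypoxia. For both genes the last hypoxia value is from the deepest library. EIF3J-AS1, next to EIF3J, had 871, 845 and 646 counts in normoxia and 995, 951 and 2275 counts in hypoxia, the last in the deepest library.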
